A study of Mus musculus with 12 samples.

Results

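The 9 chemokine genes described here, Ccl2, Ccl7, Cxcl1, Ccl6, Ccl9, Cxcl12, Cxcl10, Cxcl16 and Cx3cl1, were picked by symbol with earlier results of these data in view, and each had 1 row among the 18530 genes of the deposited expression table. Their transcripts were read in cardiomyocytes isolated from mouse hearts, in 12 libraries of 4 groups with 3 libraries each. The groups were mdx:Utrn+/- with PB1046, mdx:Utrn+/- with saline, mdx with PB1046 and mdx with saline. Every group carried the mdx mutation of dystrophin, the muscle membrane protein lost in Duchenne muscular dystrophy, and the mdx:Utrn+/- mice also lacked a functional copy of Utrn, which encodes the related protein utrophin. PB1046 is a long-acting analog of vasoactive intestinal peptide, a hormone that raises cAMP. Mice were injected with it or with saline on alternate days between weeks 4 and 12, and hearts were removed at week 14. PB1046 was given at 0.75 or 1.5 mg/kg in the protocol, and its labels say high dose. No wild-type hearts were among the samples, so a level in a dystrophic heart could not be set against a healthy heart. The labels do not state whether the 3 libraries of a group came from separate mice, so p-values measure the spread between these libraries, which may be technical.

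Chemokines are small secreted proteins that bind G protein-coupled receptors on leukocytes and draw the cells along a gradient. In an injured heart, Ccl2 and Ccl7 call monocytes through Ccr2, Cxcl1 calls neutrophils through Cxcr2, and Cxcl12 holds and guides cells that carry Cxcr4. The inflammatory members are classic targets of NF-kB, and the series names NF-kB and cAMP-PKA-CREB transcripts as its subject.

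Libraries held 7234100 to 25458194 reads, as recovered from the deposited TPM, a transcript level scaled by gene length and library total. Utrn had 3.32 to 9.92 TPM in the 6 mdx:Utrn+/- libraries, against 6.11 to 18.3 TPM in the 6 mdx libraries, so the genotypes overlapped in single libraries. The cells named on the label were there: 15 cardiomyocyte markers summed to 101186 to 139430 TPM in every library and none was at 0. Other cells were there too. None of the 19 macrophage, 15 endothelial and 14 fibroblast markers in the table was at 0 in any library. Their sums moved several-fold between libraries in some groups and little in others. In bulk RNA of this kind, more cells of a type and more RNA per cell cannot be told apart.

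Sequence of the start regions was read for the 6 members matched in RefSeq (GRCm38.p6), as 250 bases upstream of the start site on the gene's own strand, while Ccl2, Ccl7 and Cxcl16 had no entry. The start regions of Cxcl1 and Cxcl10 are shown because they held the letters of an NF-kB site, here GGGA, any 2 bases, then TTCC, on either strand. The region of Cxcl1 is chr5:90890995-90891244, plus strand, with its NF-kB letters in capitals. The region of Cxcl10 is chr5:92348890-92349139, minus strand, with capitals for an interferon-response motif (GAAA, any 2 bases, then GAAA) and then the NF-kB letters.
Cxcl1: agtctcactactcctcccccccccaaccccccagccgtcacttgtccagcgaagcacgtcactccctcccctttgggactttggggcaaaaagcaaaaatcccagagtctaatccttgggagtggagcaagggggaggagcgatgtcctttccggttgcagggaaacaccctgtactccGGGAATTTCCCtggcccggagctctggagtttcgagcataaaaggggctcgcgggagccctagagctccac
Cxcl10: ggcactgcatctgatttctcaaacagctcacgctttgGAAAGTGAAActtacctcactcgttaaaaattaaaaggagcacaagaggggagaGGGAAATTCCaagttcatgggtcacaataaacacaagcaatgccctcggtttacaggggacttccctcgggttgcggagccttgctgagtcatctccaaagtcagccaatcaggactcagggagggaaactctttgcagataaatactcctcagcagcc
In Cxcl1 the NF-kB letters began 71 bases upstream of the start and matched again on the other strand from 70 bases, so that the capitals cover overlapping matches. In Cxcl10 they began 159 bases upstream, and the interferon-response letters began 213 bases upstream. Of 32851 mouse start regions of the same length, 397 (1.21%) held the NF-kB letters and 2.98% held the interferon-response letters. Both strands were read for these and for the motifs below. Among the 6 members, 2 held the NF-kB letters and 1 the interferon-response letters. TGACG, the core of the cAMP-response site, was in 17.8% of all start regions and in Cxcl1 and Cxcl12 among the members. In these members it was on the opposite strand, and so reads CGTCA on the gene's own strand. TGANTCA, the AP-1 motif, was in 6.75% of all and in Cxcl10 and Ccl9. GAGGAAG, read as a PU.1 motif, was in 10.6% of all and in Cx3cl1, there on the opposite strand. TTGCNNAA, a C/EBP motif, was in 9.56% of all and in none of the members. TATAAA, the letters of a TATA box, was on either strand in 12.4% of all and in Cx3cl1 and Ccl9. On the gene's own strand it began 6 bases upstream of the start in Cx3cl1 and 92 bases upstream in Ccl9. A match describes letters and not binding, and no match says only that the letters are not in this window.

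Ccl6 and Ccl9, neighbours that were highest in the same 3 libraries, are shown because their start regions shared the longest run of any pair of members. The region of Ccl6 is chr11:83593088-83593337 and that of Ccl9 is chr11:83578637-83578886, both on the minus strand, with the shared run in capitals.
Ccl6: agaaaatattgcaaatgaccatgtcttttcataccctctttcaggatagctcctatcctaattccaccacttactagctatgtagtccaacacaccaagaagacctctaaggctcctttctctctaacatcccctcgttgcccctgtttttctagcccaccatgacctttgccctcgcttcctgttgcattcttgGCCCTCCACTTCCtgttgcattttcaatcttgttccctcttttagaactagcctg
Ccl9: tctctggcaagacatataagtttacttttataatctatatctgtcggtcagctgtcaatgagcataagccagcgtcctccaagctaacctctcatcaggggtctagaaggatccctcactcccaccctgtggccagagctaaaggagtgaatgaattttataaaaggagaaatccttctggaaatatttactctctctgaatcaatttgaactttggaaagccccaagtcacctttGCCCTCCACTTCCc
The shared run, GCCCTCCACTTCC, was 13 bases long, and the longest run shared by any of the other pairs was 7 to 10 bases. It began 55 bases upstream in Ccl6 and 14 bases upstream in Ccl9. How often other start regions share a run of this length was not tested. On the genome (mm10) the genes lie at chr11:83587886-83593087 and chr11:83572917-83578636, with 9249 bases between them. Ccl2 (chr11:82035577-82037452) and Ccl7 (chr11:82045712-82047523) are neighbours as well, with 8259 bases between them, both on the plus strand. Cxcl1 (chr5:90891245-90893115) and Cxcl10 (chr5:92346639-92348889) share a chromosome but lie 1453523 bases apart. Cxcl12 is at chr6:117168535-117181368, Cxcl16 at chr11:70454234-70459984 and Cx3cl1 at chr8:94772180-94782426.

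All 9 genes were detected in every library and passed the filter of at least 1 TPM in at least 3 libraries. Over the 12 libraries, Ccl2 and Cxcl12 were the most abundant, at 40.0 ± 27.2 and 35.5 ± 19.7 TPM (mean ± SD, n = 12). Ccl2 exceeded Cxcl12 in only 5 of 12 libraries, so their order did not hold beyond the spread. Next came Ccl6 (19.99 ± 14.9 TPM), Cxcl1 (17.2 ± 8.67 TPM) and Ccl7 (16.7 ± 10.09 TPM), which changed places from library to library: Ccl6 was above Cxcl1 in 5 of 12 and Cxcl1 above Ccl7 in 6 of 12. Cxcl16 (10.4 ± 6.02 TPM) was above Ccl9 (6.07 ± 4.48 TPM) in 11 of 12 libraries. Cx3cl1 (3.61 ± 1.42 TPM) and Cxcl10 (2.56 ± 1.58 TPM) were the scarcest, and Cxcl10 rested on 4 to 48 reads per library. These genes varied more than most: the SD of the log2 level over the 12 libraries was 1.21 for Ccl2, 0.91 for Ccl6, 0.81 for Cxcl1, 0.79 for Ccl7 and 0.75 for Ccl9, against a median of 0.32 over the 12798 genes tested. Group membership accounted for 49.99% of that variance for Ccl7 and 40.9% for Ccl2, but for 13.7% for Ccl6 and 6.23% for Cxcl16, against a median of 22.9% over all tested genes.

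**Figure D1:**
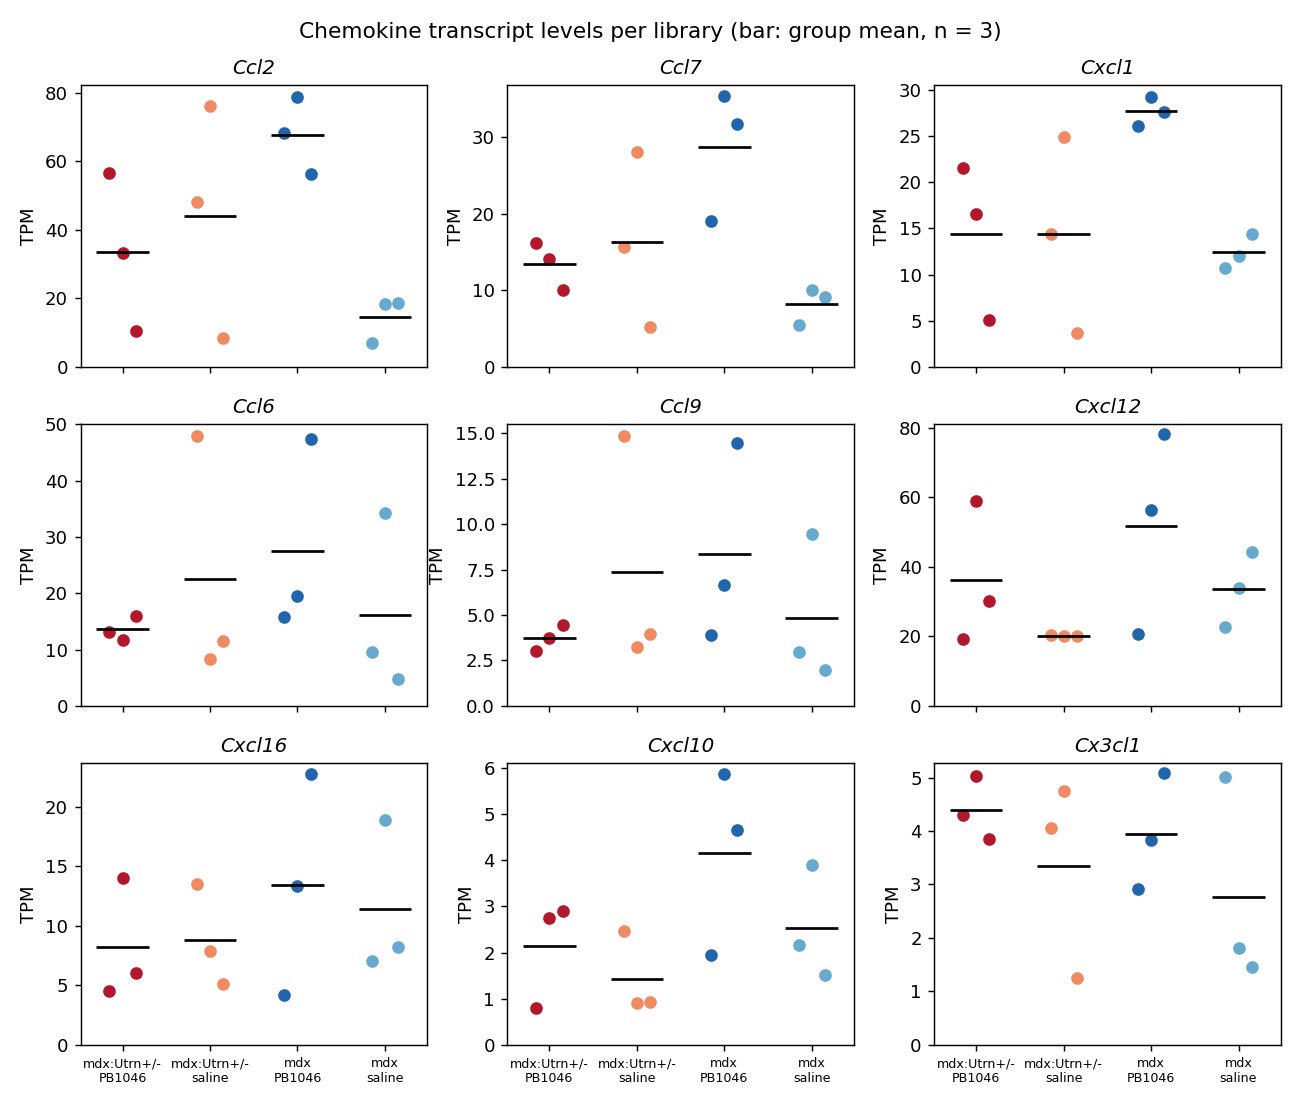
Transcript level (TPM, linear axis from 0) of each of the 9 chemokines in the 12 libraries, with a point for each library and a bar for the mean of the 3 libraries of a group. The 3 mdx PB1046 points for Ccl2, Ccl7 and Cxcl1 lie above all mdx saline points, while Ccl6 and Ccl9 show a single high library in 3 of the 4 groups.

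Ccl2, the main monocyte attractant of the heart, was high under PB1046 in mdx hearts and uneven in mdx:Utrn+/- hearts. In mdx:Utrn+/- libraries it had 56.7, 33.3 and 10.6 TPM under PB1046, against 48.1, 76.0 and 8.42 TPM under saline. In mdx libraries it had 68.3, 78.7 and 56.2 TPM under PB1046, against 6.89, 18.4 and 18.6 TPM under saline. The mdx groups did not overlap and their means differed 4.63-fold, whereas the mdx:Utrn+/- groups overlapped almost completely, with a low library in each. The log2 change with PB1046 was -0.35 in mdx:Utrn+/- (95% interval -1.98 to 1.27) and 2.05 in mdx (0.43 to 3.68), on the scale log2(TPM + 1), which understates the change of low genes.

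Ccl7, a second Ccr2 ligand encoded next to Ccl2, had the same layout at lower levels. Its mdx:Utrn+/- libraries held 16.2, 14.1 and 10.07 TPM under PB1046, against 15.7, 28.1 and 5.21 TPM under saline. Its mdx libraries held 19.0, 35.4 and 31.7 TPM under PB1046, against 5.46, 10.05 and 9.19 TPM under saline. Every mdx PB1046 library was thus above every mdx saline library, and above every mdx:Utrn+/- PB1046 library too. The log2 change with PB1046 was -0.16 in mdx:Utrn+/- (-1.15 to 0.84) and 1.49 in mdx (0.50 to 2.49).

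Cxcl1, a neutrophil attractant that binds Cxcr2, was tightly grouped in mdx and scattered in mdx:Utrn+/-. Under PB1046 the mdx:Utrn+/- libraries had 21.5, 16.5 and 5.04 TPM, against 14.4, 24.9 and 3.71 TPM under saline. Under PB1046 the mdx libraries had 26.1, 29.3 and 27.6 TPM, against 10.7, 12.0 and 14.4 TPM under saline. The mdx groups did not overlap (2.23-fold between means), and the lowest library of each mdx:Utrn+/- group was replicate 3, which was the lowest for Ccl2 and Ccl7 too. These 2 libraries were the deepest of the mdx:Utrn+/- genotype, at 22546257 reads under PB1046 and 25013287 under saline, and they held 1178 and 1708 TPM of the ribosomal precursor entry Rn45s, the least of that genotype. The log2 change with PB1046 was -0.02 in mdx:Utrn+/- (-1.27 to 1.23) and 0.92 in mdx (-0.33 to 2.18). Summed neutrophil markers ran from 4.95 to 20.9 TPM in mdx:Utrn+/- PB1046, against 9.43 to 14.7 TPM in mdx:Utrn+/- saline. They ran from 1.80 to 13.2 TPM in mdx PB1046, against 1.64 to 5.005 TPM in mdx saline. The sum of 1.80 TPM was in mdx PB1046 replicate 1, where Cxcl1 had 26.1 TPM.

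The myeloid chemokines Ccl6 and Ccl9, which bind Ccr1 and have no direct human counterpart, were set by single libraries. Ccl6 had 13.1, 11.7 and 16.0 TPM in mdx:Utrn+/- PB1046, against 47.9, 8.33 and 11.5 TPM in mdx:Utrn+/- saline. It had 15.8, 19.6 and 47.4 TPM in mdx PB1046, against 9.52, 34.2 and 4.82 TPM in mdx saline. The highest library was replicate 1 in mdx:Utrn+/- saline, replicate 3 in mdx PB1046 and replicate 2 in mdx saline, and all groups overlapped. Ccl9 had 3.03, 3.75 and 4.44 TPM in mdx:Utrn+/- PB1046, against 14.9, 3.23 and 3.98 TPM in mdx:Utrn+/- saline. It had 3.93, 6.65 and 14.5 TPM in mdx PB1046, against 2.99, 9.49 and 2.00 TPM in mdx saline. Its 3 highest libraries were those of Ccl6. The log2 change with PB1046 was -0.44 in mdx:Utrn+/- and 0.80 in mdx for Ccl6, and -0.69 in mdx:Utrn+/- and 0.57 in mdx for Ccl9, with intervals that all held 0.

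Cxcl12, a homeostatic chemokine made by stromal and endothelial cells, had 19.4, 59.1 and 30.2 TPM in mdx:Utrn+/- PB1046, against 20.5, 20.1 and 20.1 TPM in mdx:Utrn+/- saline. It had 20.6, 56.3 and 78.3 TPM in mdx PB1046, against 22.6, 34.0 and 44.4 TPM in mdx saline. Before scaling, the 3 mdx:Utrn+/- saline libraries had an SD of 0.205 TPM and lay below every mdx saline library. The other groups were spread widely. The log2 change with PB1046 was 0.52 in mdx:Utrn+/- (-0.27 to 1.32) and 0.28 in mdx (-0.52 to 1.07). In mdx it was -0.02 without PB1046 replicate 3 and 0.68 without PB1046 replicate 1, and in mdx:Utrn+/- it was 0.24 without PB1046 replicate 2 and 0.08 with the endothelial marker score as a term.

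Cxcl10 is induced by interferon and draws T cells through Cxcr3. It had 0.801, 2.75 and 2.90 TPM in mdx:Utrn+/- PB1046, against 2.46, 0.906 and 0.931 TPM in mdx:Utrn+/- saline, and 1.94, 5.86 and 4.65 TPM in mdx PB1046, against 2.16, 3.89 and 1.52 TPM in mdx saline. All groups compared overlapped, at read numbers where counting error is large. Cxcl10 overlaps Art3 on the opposite strand in the GENCODE annotation. Art3 had 121 to 339 TPM, and whether the authors' counting used strand is not given in the sources used here, so the Cxcl10 level is uncertain. Cxcl16 overlaps Zmynd15 and Ccl6 overlaps E230016K23Rik in the same way, but these had at most 3.79 and 0.26 TPM. Ccl2 overlaps Gm17268 in the same way, and that gene was not in the deposited expression table. Whether its transcripts added to the Ccl2 level is therefore unknown. The overlapping genes were looked up after the values were seen.

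Cxcl16 and Cx3cl1 are the transmembrane chemokines, which hold cells on the surface that makes them until proteases release them. Cxcl16, the ligand of Cxcr6 and a scavenger receptor of macrophages, had 4.498, 14.0 and 6.04 TPM in mdx:Utrn+/- PB1046, against 13.5, 7.84 and 5.07 TPM in mdx:Utrn+/- saline. It had 4.16, 13.4 and 22.7 TPM in mdx PB1046, against 7.04, 18.8 and 8.25 TPM in mdx saline. Cx3cl1, or fractalkine, the ligand of Cx3cr1, had 4.30, 5.03 and 3.85 TPM in mdx:Utrn+/- PB1046, against 4.05, 4.76 and 1.24 TPM in mdx:Utrn+/- saline. It had 2.92, 3.84 and 5.08 TPM in mdx PB1046, against 5.003, 1.82 and 1.46 TPM in mdx saline. Groups overlapped for both genes in every comparison. The log2 change with PB1046 was -0.28 in mdx:Utrn+/- and -0.10 in mdx for Cxcl16, and 0.31 in mdx:Utrn+/- and 0.33 in mdx for Cx3cl1. The sign of Cxcl16 in mdx turned when TPM were used without scaling factors (0.08), and the change was 0.39 without mdx PB1046 replicate 1, 0.30 without mdx saline replicate 2 and -0.50 without mdx PB1046 replicate 3.

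To place the 9 genes within the PB1046 response, limma was fitted over all 12798 tested genes. At an adjusted p under 0.05, 0 genes passed in any of the 5 contrasts (0% of those tested), and limma-voom on recovered reads also called 0. At an unadjusted p under 0.05 limma listed 407 genes for PB1046 in mdx (3.18%), with Ccl2 and Ccl7 among them, and limma-voom listed 429 genes. For PB1046 in mdx:Utrn+/- limma listed 246 genes (1.92%), none of them a member, and limma-voom listed 208. The adjusted p in limma was 0.999 for every member in mdx and 1.00 in mdx:Utrn+/-. In TPM before scaling, 3 of 9 members were higher in mdx without overlap between groups, as were 6.56% of all tested genes. In the same comparison 0 of 9 were lower, as were 2.06%. In mdx:Utrn+/-, 0 of 9 separated the groups, where 5.14% of tested genes were higher and 1.06% lower. The median log2 change of the members was -0.16 in mdx:Utrn+/- and 0.57 in mdx, against 0.02 in mdx:Utrn+/- and -0.02 in mdx over all tested genes. In mdx 8 of 9 members had a log2 change above 0, as had 46.5% of all tested genes, and in mdx:Utrn+/- 3 of 9 had, as had 53.4%. Across 23 other settings those counts ran from 7 to 9 in mdx and from 2 to 6 in mdx:Utrn+/-. Without scaling factors they were 9 in mdx, where the median of all genes moved to 0.14, and 4 in mdx:Utrn+/-, where it moved to 0.15. The members' median in mdx:Utrn+/- was -0.71 without saline replicate 3 and 0.26 without saline replicate 2 of that genotype, so its sign rested on single libraries, and in mdx it was 0.22 without saline replicate 3 and 0.90 without saline replicate 2 of mdx. Marker lists leaned too. In mdx, 18 of 19 macrophage, 13 of 14 fibroblast and 8 of 9 smooth muscle and pericyte markers were above 0. So were 7 of 15 endothelial and 1 of 15 cardiomyocyte markers. In mdx:Utrn+/- these counts were 1, 1, 4, 15 and 6. With the macrophage marker score as a term, 8 of 9 members were above 0 in mdx and 5 of 9 in mdx:Utrn+/-. With the endothelial marker score as a term, 8 of 9 were above 0 in mdx and 4 of 9 in mdx:Utrn+/-. The part of the remaining cell types was not tested. Since the members were chosen with results in view, all of these are descriptions.

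The authors' deposited table gave the same order of size in mdx, with saline minus PB1046 as its direction: log2 fold changes of -2.08 for Ccl2, -1.61 for Ccl7 and -1.001 for Cxcl1. In that table the p-values were 0.00102, 0.000808 and 0.0638, and the false discovery rate was 1 for all of them.

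The mdx PB1046 and mdx saline libraries also differed in other ways. Reads numbered 14029004, 11468009 and 14182350 in mdx PB1046, against 25458194, 18162940 and 19290414 in mdx saline. Rn45s, the entry of the ribosomal RNA precursor, had 21289, 25861 and 11570 TPM in mdx PB1046, against 1039, 7611 and 10403 TPM in mdx saline. Neither quantity overlapped between these groups, with Rn45s in TPM before scaling. With log2 Rn45s as a term of the fit, the log2 change in mdx was 0.96 (0.34 to 1.58) for Ccl2, 0.92 for Ccl7 and 0.15 for Cxcl1. Summed macrophage markers ran from 365 to 1079 TPM in mdx PB1046, against 152 to 889 TPM in mdx saline, and fibroblast markers from 728 to 1974 TPM in mdx PB1046, against 391 to 1276 TPM in mdx saline. With the macrophage marker score as a term, the log2 change in mdx was 2.03 for Ccl2, 1.46 for Ccl7, 0.95 for Cxcl1, 0.37 for Ccl6 and 0.22 for Ccl9. The part of fibroblast content was not tested.

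**Figure D2:**
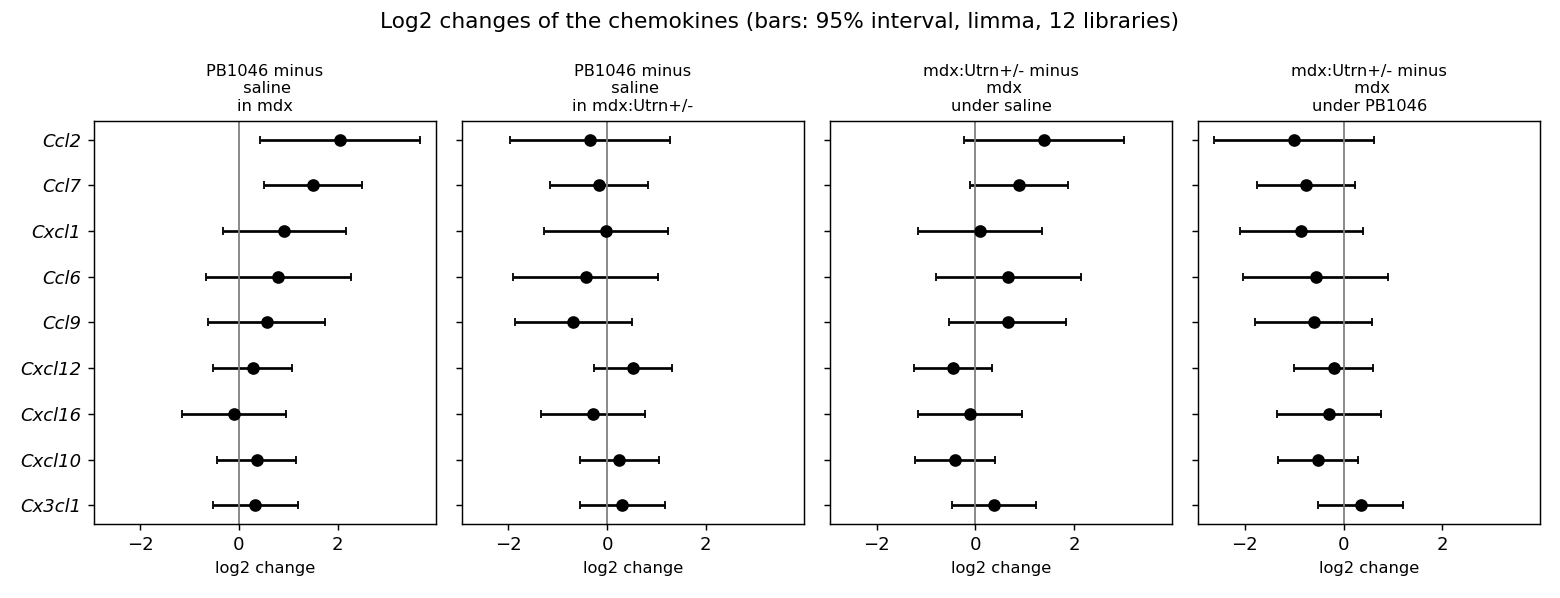
Log2 change of each chemokine on the scale log2(TPM + 1) in 4 comparisons, with 95% intervals from limma over 12 libraries. The interval lay above 0 for Ccl2 and Ccl7 in the comparison of PB1046 with saline in mdx, and held 0 in all others drawn.

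Genotype was compared within each treatment. Under saline, Ccl2 averaged 44.2 ± 34.0 TPM in mdx:Utrn+/- and 14.6 ± 6.71 TPM in mdx (SD, n = 3 each), a log2 difference of 1.40 (-0.22 to 3.02, adjusted p = 0.867 in limma). Ccl7 averaged 16.3 ± 11.4 TPM in mdx:Utrn+/- and 8.23 ± 2.44 TPM in mdx, a log2 difference of 0.88. Both ranges overlapped, since replicate 3 of mdx:Utrn+/- saline lay within the mdx range for Ccl2 and below it for Ccl7. Without that library the log2 difference of Ccl2 was 2.33, and without replicate 2 of the same group it was 0.79. In the authors' deposited table, whose direction here is mdx minus mdx:Utrn+/-, the log2 fold change was -1.86 for Ccl2 and -1.22 for Ccl7, with a false discovery rate of 0.935 for each. In TPM before scaling, Cxcl12 was the only member to separate the genotypes under saline. It averaged 20.2 ± 0.205 TPM in mdx:Utrn+/- and 33.7 ± 10.9 TPM in mdx. The scaling factors were 0.85, 0.88 and 0.90 in mdx:Utrn+/- saline and 0.97, 1.06 and 1.02 in mdx saline. Divided by them, the groups overlapped, and the log2 difference on scaled values was -0.45 (-1.24 to 0.35). Before scaling, being lower without overlap was common in this comparison, at 15.1% of all tested genes, and being higher was rare, at 0.703%. The median log2 difference of all tested genes was -0.20 without scaling factors and -0.02 with them. Of the members, 6 of 9 had a log2 difference above 0, as had 48.1% of all tested genes, with a median of 0.37 against -0.02. Across the other settings that count ran from 4 to 7, and the median was -0.08 without mdx:Utrn+/- saline replicate 1 and 0.83 without mdx:Utrn+/- saline replicate 3. An unadjusted p under 0.05 was reached by 489 genes (3.82%) and by 0 members. Summed endothelial markers were lower as well, from 1222 to 1581 TPM in mdx:Utrn+/- saline, against 1441 to 3749 TPM in mdx saline. With the endothelial marker score as a term, the log2 difference of Cxcl12 was 0.04.

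The genotypes were compared under PB1046 in the same way. Ccl7 averaged 13.5 ± 3.10 TPM in mdx:Utrn+/- and 28.7 ± 8.57 TPM in mdx, and Cxcl1 averaged 14.4 ± 8.44 TPM in mdx:Utrn+/- and 27.7 ± 1.58 TPM in mdx. In TPM before scaling, both were lower in mdx:Utrn+/- without overlap, as were 6.33% of all tested genes. None of the members was higher without overlap, as were 0.922%. The scaling factor was 0.84 for mdx:Utrn+/- PB1046 replicate 1 and 1.32 for mdx PB1046 replicate 3. After scaling, the Cxcl1 groups overlapped and the Ccl7 groups did not. The log2 differences were -0.77 (-1.76 to 0.23) for Ccl7, -0.85 (-2.11 to 0.40) for Cxcl1 and -1.01 (-2.63 to 0.62) for Ccl2. With log2 Rn45s as a term they were -0.35 for Ccl7, -0.29 for Cxcl1 and -0.21 for Ccl2. Of the members, 1 of 9 had a log2 difference above 0, as had 54.1% of all tested genes, with a median of -0.57 against 0.03 over all tested genes. That gene was Cx3cl1 (0.35). Across the other settings the count ran from 1 to 3. The median ran from -0.82 (without scaling factors) to -0.16 (with the macrophage marker score as a term). Without mdx PB1046 replicate 3 it was -0.24, with 3 of 9 above 0. An unadjusted p under 0.05 was reached by 226 genes (1.77%) and 0 members.

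Whether PB1046 acted differently in the genotypes was asked of the difference between the PB1046 changes, mdx:Utrn+/- minus mdx. It was -2.41 for Ccl2 (-4.70 to -0.11, unadjusted p = 0.0413) and -1.65 for Ccl7 (-3.06 to -0.25, unadjusted p = 0.0251), and both had an adjusted p of 1.00 in limma. Ccl9 (-1.26), Ccl6 (-1.24) and Cxcl1 (-0.94) were also below 0, and Cxcl16 (-0.19), Cxcl10 (-0.11), Cx3cl1 (-0.02) and Cxcl12 (0.25) were near it. In all 1 of 9 members was above 0, as were 54.4% of tested genes, and the median was -0.94 against 0.04. Across the other settings the count ran from 0 to 4 and the median from -1.51 (without mdx:Utrn+/- saline replicate 3) to -0.24 (with the macrophage marker score as a term, where 4 of 9 were above 0). An unadjusted p under 0.05 was reached by 316 genes (2.47%). With the log2 Rn45s term the differences were -0.89 for Ccl2, -0.86 for Ccl7 and 0.14 for Cxcl1. With the macrophage marker score as a term they were -0.24 for Ccl6 and -0.46 for Ccl9.

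**Figure D3:**
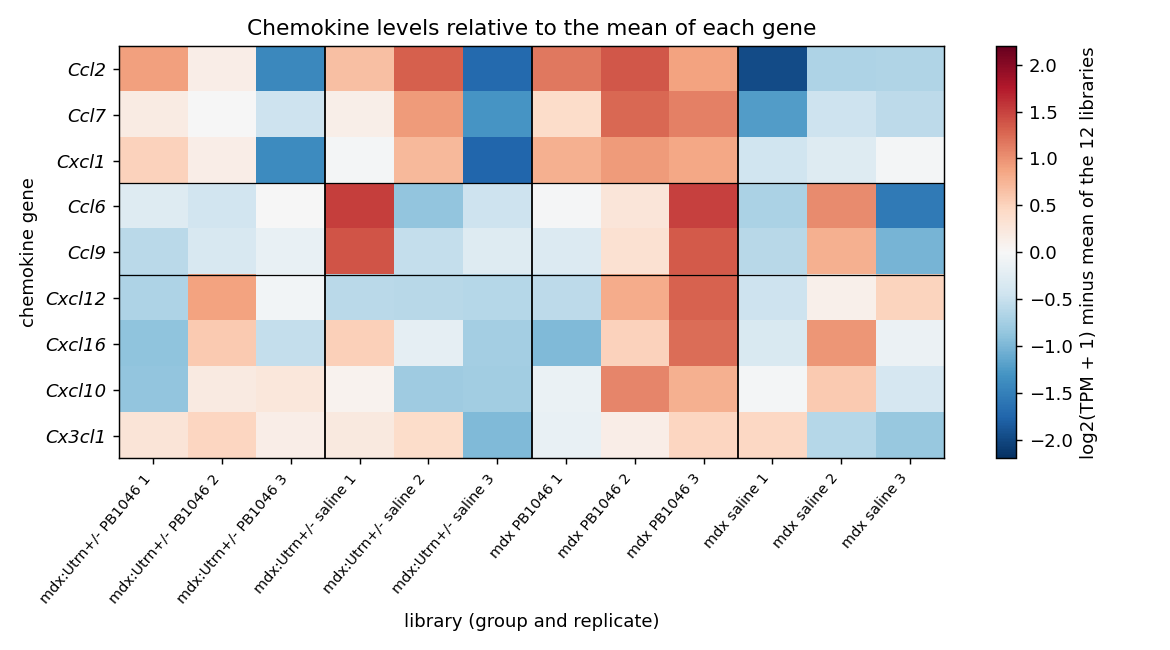
Level of each chemokine in each library, as log2(TPM + 1) minus the mean of the 12 libraries for that gene (red above, blue below). Ccl2, Ccl7 and Cxcl1 share their high and low libraries, and Ccl6 and Ccl9 share a different set, led by mdx:Utrn+/- saline replicate 1, mdx PB1046 replicate 3 and mdx saline replicate 2.

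Correlations were computed over the 12 libraries for all 36 pairs of members, on scaled log2 values. The genes were chosen with these libraries in view, so the p-values here and below describe the same data and give no independent support. Ccl6 and Ccl9 were closest, with Pearson r = 0.97 (permutation p = 1e-05, the smallest that 100000 permutations can give, adjusted 0.00036) and Spearman rho = 0.90 (permutation p = 0.00012, adjusted 0.00216). Ccl2 and Ccl7 had r = 0.94 (permutation p = 5e-05, adjusted 0.0009) and rho = 0.90 (permutation p = 0.00021, adjusted 0.00252). Ccl2 and Cxcl1 had r = 0.88 (permutation p = 0.00013, adjusted 0.00156) and rho = 0.97 (permutation p = 1e-05, adjusted 0.00036). Ccl7 and Cxcl1 had r = 0.82 (permutation p = 0.00101, adjusted 0.00909) and rho = 0.86 (permutation p = 0.00071, adjusted 0.00639). None of the other pairs passed an adjusted p of 0.05, the next being Ccl9 with Cxcl16 (r = 0.68, permutation p = 0.0144, adjusted 0.104).

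When the 2 libraries with the most extreme level of the first gene were left out, r was 0.94, 0.88, 0.93 and 0.78 for the pairs in the order given, and with group means removed it was 0.98, 0.90, 0.95 and 0.86. On the larger side of the widest gap in the first gene, r was 0.97 over 11 libraries for Ccl6 with Ccl9 and 0.88 over 7 for Ccl2 with Cxcl1 (exact permutation p = 0.00952). It was 0.74 over 7 for Ccl2 with Ccl7 (exact permutation p = 0.0589) and 0.34 over 6 for Ccl7 with Cxcl1 (exact permutation p = 0.536), so these pairs rested in part on the contrast of high and low libraries.

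**Figure D4:**
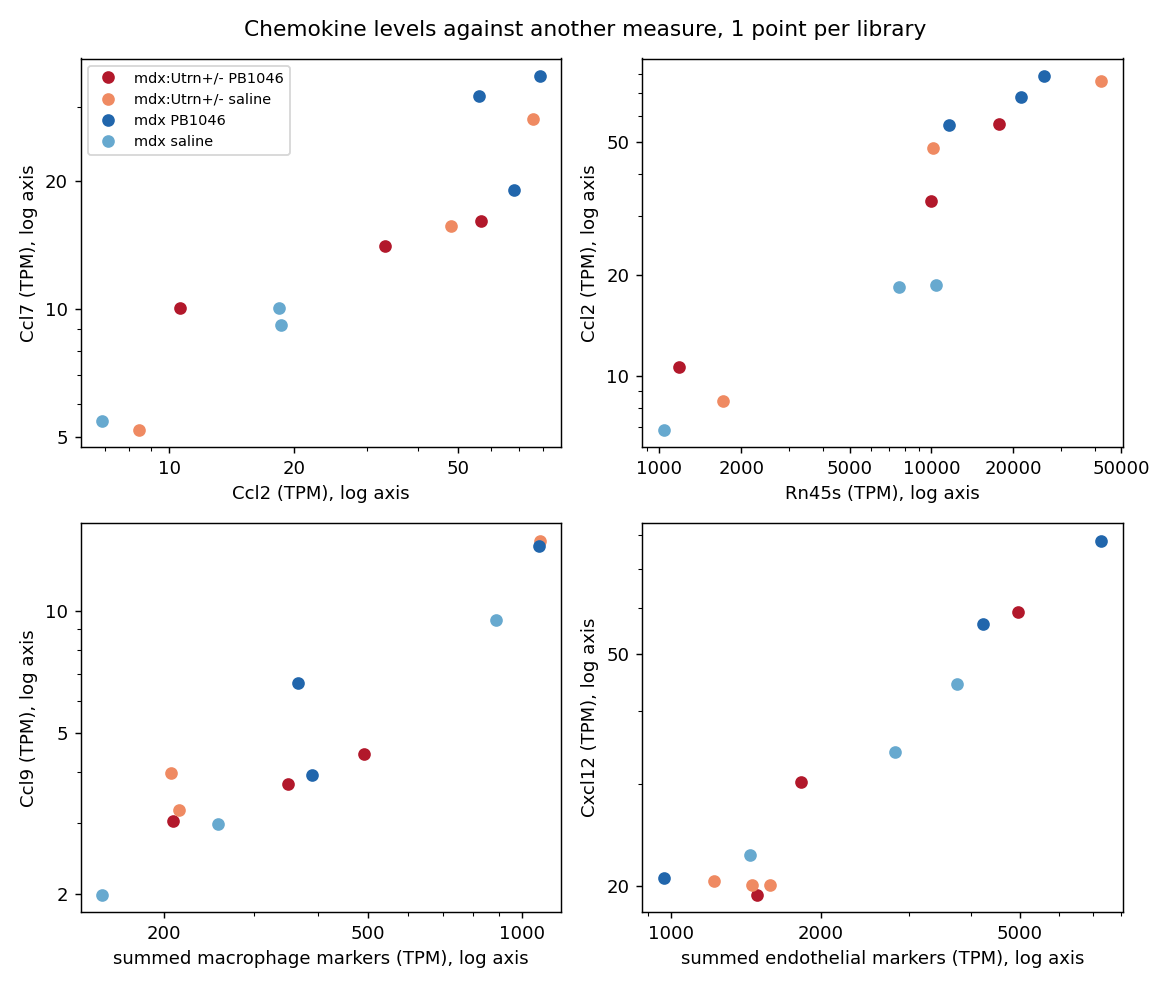
Levels per library on log axes, with a point for each of the 12 libraries coloured by group: Ccl7 against Ccl2, Ccl2 against Rn45s, Ccl9 against summed macrophage markers and Cxcl12 against summed endothelial markers (all TPM). Each pair rises together, with 3 libraries set apart at low Rn45s and 3 at high macrophage sums.

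A further 27 relations were computed, of each member with Rn45s, with a macrophage score and with an endothelial score (mean centred log2 level of the markers). On Rn45s the libraries fell apart into 3 from 1039 to 1708 TPM and 9 from 7611 to 42106 TPM, so r was taken over those 9. It was 0.83 for Ccl2 (exact permutation p = 0.00534, adjusted over 10 such values 0.0178; rho = 0.95, exact p = 0.000353), 0.86 for Cxcl1 (exact permutation p = 0.00313, adjusted 0.0157; rho = 0.95) and 0.74 for Ccl7 (exact permutation p = 0.0251, adjusted 0.0358; rho = 0.67, exact p = 0.0589). On the macrophage score 3 libraries stood apart at the top, and over the other 9 r was 0.81 for Ccl6 (exact permutation p = 0.00802, adjusted 0.0190; rho = 0.73, exact p = 0.0311) and 0.80 for Ccl9 (exact permutation p = 0.0117, adjusted 0.0195; rho = 0.83, exact p = 0.00827).

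Cxcl12 followed the endothelial score over the 12 libraries (r = 0.95, permutation p = 1e-05, adjusted 0.000135; rho = 0.90, permutation p = 0.0002, adjusted 0.00135), and r was 0.90 without the 2 farthest libraries and 0.95 with group means removed. Over the 7 libraries below the widest gap of that score, r was 0.59 (exact permutation p = 0.155), so the relation rested in part on the 5 libraries with more endothelial transcript. None of the remaining relations passed, Cxcl16 with the macrophage score being the next (adjusted p = 0.0528).

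Genes most like each member were listed by Pearson r over the 12 libraries among all tested genes, as a description with no p. For Ccl2 they were Adcyap1r1, the receptor of the VIP relative PACAP (0.98), the pentraxin Ptx3 (0.98) and the cytochrome Cyp1b1 (0.98). Ccl7 was most like Ccl2 (0.94), the matrix protease Mmp3 (0.94) and the activin subunit Inhbb (0.94). The cytokine Il6 (0.94) and the neutrophil attractant Cxcl5 (0.93) were nearest to Cxcl1, with the adhesion receptor Gpr133 (0.93). Emb, Ccl9 and the complement receptor C5ar1 (all 0.97) were nearest to Ccl6, and Cd74, the invariant chain of class II antigen presentation (0.98), Tgfbi (0.97) and Ccl6 (0.97) to Ccl9. Cxcl12 was nearest to the kinase gene Chek2 (0.98), to Bcl6b (0.98) and to Cd300lg (0.98). For Cxcl16 they were Dpp7 (0.95), the tubulin Tubb5 (0.94) and the scavenger receptor Stab1 (0.94), for Cxcl10 Atp6v1a (0.89), Rab31 (0.88) and Cdkn2aipnl (0.88), and for Cx3cl1 Rps4l (0.94), Lrrc42 (0.93) and Lrrn2 (0.91). Il6 shows the layout: it had 7.43, 4.17 and 0.734 TPM in mdx:Utrn+/- PB1046, against 4.57, 10.08 and 0.707 TPM in mdx:Utrn+/- saline, and 12.1, 10.9 and 6.20 TPM in mdx PB1046, against 1.09, 3.69 and 2.61 TPM in mdx saline. As for Ccl2, the mdx groups did not overlap and replicate 3 was the lowest in each mdx:Utrn+/- group. Being higher in mdx without overlap held for 6.56% of all tested genes. Il6 was listed for its r with Cxcl1 over these libraries, so the likeness gives no separate support.

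The receptors for these ligands were mostly scarce. Ccr2, which binds Ccl2 and Ccl7, had a median of 2.80 TPM (0.820 to 11.9 TPM over 12 libraries), and Cxcr2, which binds Cxcl1, had 1.25 TPM (0.456 to 1.99 TPM). Ccr1, for Ccl6 and Ccl9, had 0.488 TPM, Cx3cr1 had 0.933 TPM, Cxcr6 had 0.469 TPM, Cxcr3 had 0.129 TPM and Ccr3 had a median of 0. Ccr2, Ccr1, Cx3cr1 and Cxcr6 were all highest in mdx:Utrn+/- saline replicate 1, the library with the highest Ccl6 and Ccl9. Ackr3 was the exception among receptors of the members. This atypical receptor takes up Cxcl12 and signals to arrestin, and it had a median of 70.9 TPM (50.6 to 125 TPM), against 4.10 TPM (1.86 to 9.34 TPM) for Cxcr4, the signaling receptor of Cxcl12. Ccrl2, an atypical receptor that binds chemerin, followed at 20.4 TPM (12.3 to 47.2 TPM). Of 22 receptors listed, 9 passed the filter on low values, and 0 of these passed the adjusted test in any contrast. The largest leaning was for Ccrl2 in mdx:Utrn+/-, at a log2 change with PB1046 of -0.79 (-1.72 to 0.14).

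**Figure D5:**
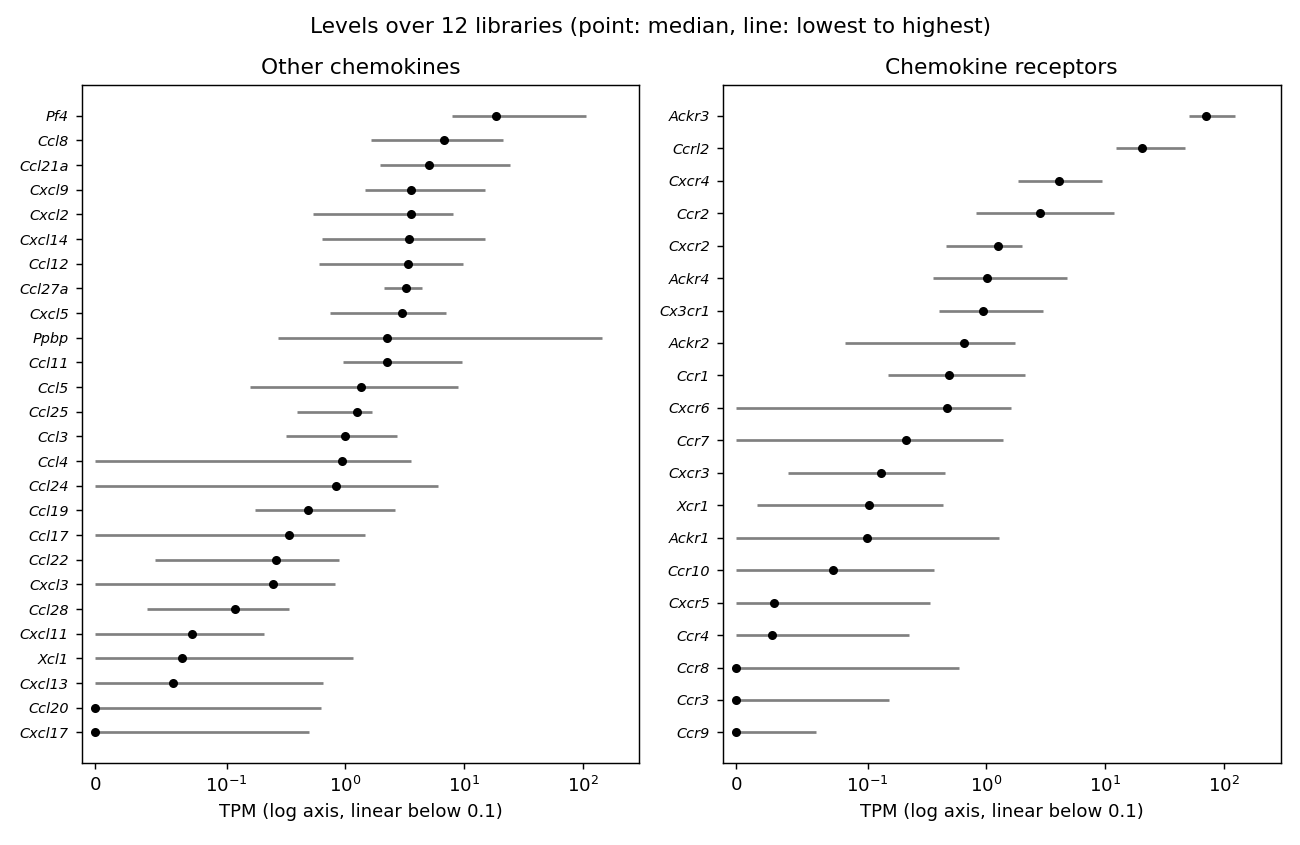
Median (point) and lowest to highest level (line) in TPM over the 12 libraries for 26 chemokines outside the 9 and for 20 chemokine receptors, on an axis that is logarithmic above 0.1 TPM and linear below. Ackr3 and Ccrl2 lie above the other receptors, and Pf4 has the highest median among the other chemokines.

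Adam10 and Adam17, the sheddases of Cxcl16 and Cx3cl1, had medians of 19.7 and 14.3 TPM, and Dpp4, which trims and inactivates Cxcl12 and Cxcl10, had 1.32 TPM. Of 14 tested genes of processing and presentation, 10 had a log2 change above 0 with PB1046 in mdx, as had 46.5% of all tested genes. None of the 14 passed. Mmp14, a membrane matrix protease, was at 0.88 (-0.23 to 1.99) and Mmp2, which cleaves Ccl7, at 0.53 (-0.37 to 1.43).

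The other tested CXC chemokines leaned the same way in mdx, as did the macrophage and fibroblast markers given above. Of all tested genes, 46.5% were above 0 with PB1046 in mdx and 53.4% in mdx:Utrn+/-. All 6 tested CXC genes outside the members had a log2 change above 0 with PB1046 in mdx (median 1.17, against -0.02 over all tested genes), and 0 of 6 passed. Cxcl14 was at 1.39 (0.27 to 2.51), and the Cxcr2 ligands Cxcl2 and Cxcl5 were at 1.17 (-0.01 to 2.35) and 1.17 (-0.005 to 2.34). The platelet chemokine Ppbp was at 2.04 (-1.09 to 5.16), and it ran from 0.269 to 144 TPM over the libraries. Summed markers of platelets and red cells ran from 85.4 to 1122 TPM in mdx PB1046, against 22.0 to 107 TPM in mdx saline. In mdx:Utrn+/-, 4 of the same 6 genes were above 0 (median 0.25). Of 10 tested CC genes outside the members, 6 were above 0 in mdx (median 0.17) and 3 in mdx:Utrn+/- (median -0.17), with the eosinophil attractant Ccl11 at 0.94 (0.07 to 1.81) in mdx. The genes scored are not independent of the members, since they were listed with earlier results known.

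Among 10 tested inflammatory cytokines and growth factors, 7 were above 0 with PB1046 in mdx (median 0.32) and 3 in mdx:Utrn+/- (median -0.23). For this and the next lists, the background is 46.5% of all tested genes above 0 in mdx (median -0.02). In mdx:Utrn+/- it is 53.4% (median 0.02). In mdx, Il6 was at 1.50 (-0.03 to 3.04) and Lif, of the same cytokine family, at 0.89 (0.19 to 1.59), while Mif, the macrophage migration inhibitory factor, was at -0.44 (-0.94 to 0.05). Of 14 NF-kB components 9 were above 0 in mdx (median 0.09), with the adaptor Myd88 at 0.55, and the NF-kB inhibitors Tnfaip3 at 0.60 and Nfkbia at 0.61, while the kinase Chuk was at -0.36. The same number, 9 of 14, were above 0 in mdx:Utrn+/- (median 0.05). Of the interferon-induced genes, 6 of 18 were above 0 in mdx (median -0.12), with Isg15 at 0.69. In mdx:Utrn+/- 16 of 18 were above 0, with a median of 0.09. In none of these lists did a gene pass an adjusted p of 0.05 in any contrast.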

How the data were processed

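Per the labels, poly-A RNA of isolated cardiomyocytes was sequenced with a stranded kit in 12 libraries, and groups and replicate numbers came from the titles. The authors deposited gene levels as TPM on mm10, together with their own group comparisons, which per the file headers hold a log2 fold change, log2 mean CPM, a p-value with its false discovery rate, and the score of a likelihood ratio test. An unversioned edgeR appears among the tools, per the submitters' processing notes. No aligner or counter is named: not given in the sources used here. Whole reads were recovered from the TPM steps (100% of values within 0.1 read), and 0 per-sample columns were left out.

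With R 4.3.3 and limma 3.58.1, TPM were divided by trimmed-mean factors (0.842 to 1.32, after trimming 30% of the log ratios and 5% of the levels), put on log2(TPM + 1) and fitted with a mean per group over all 12 libraries for the 12798 genes at 1 TPM or more in at least 3 libraries (8 residual degrees of freedom; 5 contrasts; Benjamini-Hochberg adjusted p under 0.05). Overlap between groups was judged on TPM before division by these factors. The fit was tested on simulated data. Precision is limited by 3 libraries per group and, for scarce genes, by read number. Tables were read with Python 3.11.15, pandas 2.3.3, numpy 2.4.6 and scipy 1.17.1, and drawn with matplotlib 3.10.9. The members, gene lists and rules were chosen with earlier results of these data known. The rule for other named genes takes, per list and contrast, up to 4 tested genes of smallest unadjusted p, the receptors of the members, the 3 genes most like each member, Utrn, Dmd and Rn45s. Adam17, Tmem181b-ps and the genes that overlap members were named after their values were seen. Alternatives were other scaling, pseudocount and filter, limma-voom, a replicate block, marker scores or Rn45s as terms, and each library left out. A term for the 3 lowest library numbers was added after seeing the data. Promoter sequences are from RefSeq GRCm38.p6. A further receptor is not reported here.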

Additional observations from a re-analysis of the deposited data

How the results depend on the processing

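Of 1026 recomputed chemokine values, 1021 stayed within the spread between replicates, and the 5 that did not are the differences of the PB1046 responses with a Rn45s or macrophage term given in the report, whose cause was not tested. The count of genes passing the adjusted test was 0 in each contrast under every setting but 1. When a library was left out it ranged from 0 to 1, and the 1 gene, Tmem181b-ps (log2 2.54, adjusted p = 0.0302 in limma), passed for the difference of responses without mdx:Utrn+/- saline replicate 3. Leaving out single libraries moved the log2 change of Ccl2 with PB1046 from 1.65 to 2.28 in mdx. In mdx:Utrn+/- it ran from -1.28 (without saline replicate 3) to 0.26 (without saline replicate 2), so its direction there rested on those libraries. The same omissions gave -0.79 and 0.35 for Ccl7, and -0.74 and 0.52 for Cxcl1. For Ccl6, the difference of responses was -1.97 without mdx saline replicate 2 and -0.49 without mdx:Utrn+/- saline replicate 1.

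Replicate numbers did not pair the samples: same-numbered libraries had correlations of -0.45 to 0.49, 5 of 18 pairs were over 0.1, and 3 of 12 libraries correlated best with their own number. With the replicate block, 0 genes passed in each contrast. The 3 libraries with the lowest library numbers, whose meaning the labels do not give, were replicate 1 of mdx:Utrn+/- PB1046, mdx:Utrn+/- saline and mdx PB1046, and no mdx saline library was among them. With a term for them Ccl2 in mdx was 1.70. Cxcl10, with as few as 4 reads, is limited by depth.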
